A study of Mus musculus with 7 samples.

Results

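The screened library held gene regulatory elements (GREs), short stretches of conserved mouse genomic DNA. The study chose them for a high ratio of chromatin accessibility in somatostatin (SST) interneurons to that in other interneuron classes. Of these GREs, 84 were annotated by the authors as lying within an intron. Membership among these 84 intronic GREs was set by that annotation and not by activity, although earlier results of these data were known. The library held 203 further GREs, which were mostly intergenic and served as the comparison. Each GRE had been cloned upstream of a minimal HBB promoter driving GFP in an adeno-associated virus (AAV9), with 3 different barcodes per GRE carried in the transcript. The pool was injected into primary visual cortex (V1) of C57BL/6J mice aged 6 to 10 weeks and labelled male, and single nuclei were sequenced with inDrops in 10 libraries, numbered 1-1 to 1-5 and 2-1 to 2-5. The study's methods describe libraries from more than 1 animal, with the same number from each, but the labels do not say whether the 2 sets are animals. They form 1 sample in the labels, so nuclei are not replicates and no test was made between groups of nuclei. Chromatin accessibility was measured by ATAC-seq in uninjected F1 mice aged 6 to 12 weeks, with 2 replicates each of SST, parvalbumin (PV) and vasoactive intestinal peptide (VIP) nuclei from whole cortex. These mice came from crosses of Sst-IRES-Cre, Pv-Cre or Vip-IRES-Cre with SUN1-2xsfGFP-6xMYC, which tags the nuclear envelope of any cell that has expressed Cre. The sample labels give male and the series text both sexes for these crosses.

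Enhancers are stretches of DNA that bind transcription factors and raise transcription from a promoter that can lie far away, and many of them sit inside introns of long genes. An enhancer in an intron may act on the gene around it, on a neighbour or on both, so its host gene is a candidate target and no more. SST interneurons are inhibitory neurons, many of which contact the dendrites of excitatory cells, and they arise from the same embryonic region as PV interneurons. In the assay the element is taken out of its intron and tested beside a foreign promoter, so its reporter can be set beside the level of the host gene in the same nuclei.

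Of the 84 intronic GREs, 71 lay wholly inside an intron of the transcript named in the annotation, 11 also reached an exon of it in RefSeq (GRCm38.p6), and for 2 the named transcript was not at that position. A host gene was assigned to 83 GREs, 76 of them in protein-coding genes and 7 in long noncoding RNA genes, which gave 75 host genes. Host genes were long, with a median of 268 kb and a range of 13.8 to 2271 kb. 18 GREs were in the first intron. The nearest transcription start belonged to the host gene for 51 GREs and to another gene for 32, among them GRE22, which lay in intron 8 of 9 of Cers6, encoding a ceramide synthase, whereas the nearest start was that of Nostrin. Host genes had a column in the expression table for 79 GREs (73 genes), and the expression of the hosts of 4 GREs was not analysed here.

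Sequence windows of 7 intronic GREs are shown. They are 6 of the 8 with the highest SST fold (among members with at least 300 UMIs) and GRE5, whose fold was close to 1. All windows are 300 bases around the centre of the element, on the plus strand of GRCm38. Capitals mark matches on either strand to the 8 short motifs whose shares are given after the sequences. Per the study's methods, the cloned inserts also held flanking genomic sequence on each side, which was not searched for motifs here. GRE22 is at chr2:69084462-69084761 in Cers6, GRE91 at chr13:57459721-57460020 in Spock1, GRE211 at chr8:114771445-114771744 in Wwox, GRE131 at chr13:89607352-89607651 in Hapln1, GRE88 at chr10:44444450-44444749 in Prdm1, GRE106 at chr8:99205236-99205535 in Cdh8 and GRE5 at chr3:86507558-86507857 in Lrba.
GRE22: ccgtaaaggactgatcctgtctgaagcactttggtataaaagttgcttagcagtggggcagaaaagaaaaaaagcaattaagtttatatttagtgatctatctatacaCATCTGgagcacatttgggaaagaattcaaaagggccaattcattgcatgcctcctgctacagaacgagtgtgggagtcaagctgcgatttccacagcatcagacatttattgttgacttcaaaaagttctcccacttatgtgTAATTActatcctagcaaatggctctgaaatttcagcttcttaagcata
GRE91: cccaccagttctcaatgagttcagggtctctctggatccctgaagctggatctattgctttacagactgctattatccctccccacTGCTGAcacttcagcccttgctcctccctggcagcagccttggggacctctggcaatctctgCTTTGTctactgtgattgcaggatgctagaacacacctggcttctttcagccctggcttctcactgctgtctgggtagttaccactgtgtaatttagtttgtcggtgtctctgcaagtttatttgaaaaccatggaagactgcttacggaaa
GRE211: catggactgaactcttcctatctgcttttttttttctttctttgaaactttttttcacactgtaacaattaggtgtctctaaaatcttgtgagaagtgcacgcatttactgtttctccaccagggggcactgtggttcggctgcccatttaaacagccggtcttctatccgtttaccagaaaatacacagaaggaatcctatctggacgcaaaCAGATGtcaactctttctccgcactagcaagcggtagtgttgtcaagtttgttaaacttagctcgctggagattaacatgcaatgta
GRE131: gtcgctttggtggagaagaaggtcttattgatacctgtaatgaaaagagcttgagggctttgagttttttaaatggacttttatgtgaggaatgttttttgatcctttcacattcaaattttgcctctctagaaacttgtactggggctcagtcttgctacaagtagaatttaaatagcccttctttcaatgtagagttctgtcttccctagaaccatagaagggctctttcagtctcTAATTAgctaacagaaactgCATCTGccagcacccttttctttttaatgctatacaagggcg
GRE88: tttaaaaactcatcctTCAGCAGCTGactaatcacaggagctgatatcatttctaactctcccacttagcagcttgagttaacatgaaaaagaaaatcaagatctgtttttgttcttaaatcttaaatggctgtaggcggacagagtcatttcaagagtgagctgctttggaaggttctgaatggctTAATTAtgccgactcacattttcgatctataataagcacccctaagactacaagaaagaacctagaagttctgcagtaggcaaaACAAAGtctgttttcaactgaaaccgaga
GRE106: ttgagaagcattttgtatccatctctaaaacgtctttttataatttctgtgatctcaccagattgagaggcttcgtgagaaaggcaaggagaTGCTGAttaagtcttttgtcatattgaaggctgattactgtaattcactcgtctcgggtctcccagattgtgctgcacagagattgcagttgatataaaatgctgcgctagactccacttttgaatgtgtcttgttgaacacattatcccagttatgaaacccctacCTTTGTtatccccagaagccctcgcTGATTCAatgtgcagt
GRE5: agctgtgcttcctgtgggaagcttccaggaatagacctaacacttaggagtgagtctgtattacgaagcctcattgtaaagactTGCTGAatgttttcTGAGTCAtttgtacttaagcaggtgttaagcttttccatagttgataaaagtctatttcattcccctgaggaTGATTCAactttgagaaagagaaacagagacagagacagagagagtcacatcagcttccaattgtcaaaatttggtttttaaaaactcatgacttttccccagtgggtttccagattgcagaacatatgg
The window of GRE22 held 1 match to CATCTG and 1 to TAATTA, the homeodomain core that the windows of GRE131 and GRE88 also carried. In GRE88 a TGCTGA and a CAGCTG match overlapped.

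Across all 84 intronic GREs the central 300 bases matched CAGCTG, an E-box, in 29 GREs (34.5%) and CATCTG, another E-box, in 28 (33.3%). They matched TGCTGA, the core of the MAF site, in 26 (31.0%) and TGANTCA, which covers the AP-1 site but allows any middle base, in 21 (25.0%). The same windows in all GREs of the library matched at 35.2%, 41.8%, 33.1% and 22.3%, and 36215 reference ATAC regions with a mean phyloP conservation score above 0.5 matched at 28.7%, 29.1%, 27.4% and 11.1%. TAATTA was found in 13 intronic GREs (15.5%), against 12.2% of all GREs and 8.32% of the conserved reference regions. ACAAAG, the SOX core, was found in 19 (22.6%), against 18.8% and 20.8%. AGGTCA, a nuclear receptor core, was found in 4 (4.76%), against 4.53% and 13.3%, and TGACGTCA, the full CRE, was found in 0 intronic GREs, 0 of all GREs and 0.630% of the reference regions. The GREs were richer in A and T than the reference regions, with a median GC content of 42.2% in the intronic GREs, 41.3% in the other GREs and 51.0% in the conserved reference regions, so the shares above compare windows of unequal base composition. The median phyloP score was 0.763 in intronic GREs and 0.704 in the others, both above 0.5 because the library was chosen that way.

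Nuclei with more than 200 non-viral UMIs (unique molecular identifiers, counting transcripts) were kept, which left 32335 of 47348 barcodes with a median of 712 UMIs. The libraries held 2457 to 3629 kept nuclei and 2496224 to 3041931 UMIs each. A nucleus was placed in a class when it met 1 marker gate only. The SST gate asked for at least 3 Sst UMIs and took 664 nuclei, the PV gate took 271, the VIP gate 373, the NPY gate 337 and the excitatory gate 9778. The glial and vascular gates took 1466 astrocyte, 1396 oligodendrocyte, 279 oligodendrocyte precursor (OPC), 363 microglia and 309 vascular nuclei, while 1627 nuclei met more than 1 gate and 15472 met none. These gates are ranges on marker counts and not clusters. Near the SST cut, 190 nuclei had 2 Sst UMIs and 101 had 3, and 129 nuclei with at least 3 Sst UMIs met a further gate and stayed in the comparison. Among marker genes that no gate used, Grin3a and Elfn1, both found in SST interneurons, were at 11.4 and 4.00 UMIs per 10000 in SST-gated nuclei against 0 and 0.0801 in PV-gated nuclei. Elfn1 was also at 2.60 in VIP-gated and Grin3a at 3.83 in OPC-gated nuclei. Gad1, the GABA-synthesizing enzyme, was at 10.7 in SST-gated and 0.449 in excitatory-gated nuclei. Npy, which many SST interneurons also express, was at 28.9 in SST-gated nuclei, and the excitatory marker Slc17a7 was at 0.187.

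Libraries with consecutive numbers shared more nuclear barcodes than other pairs. The 8 consecutive pairs of a set shared 339 to 821 barcodes, the other 37 pairs of libraries 51 to 210. Where both copies were classed, 87.0% of the consecutive pairs and 49.3% of the other pairs fell in the same class, beside 43.4% for classes paired at random by their sizes. In all, 11945 of the 32335 kept nuclei, 265 of the 664 SST-gated ones among them, carried a barcode also seen in another library, so some nuclei may be counted more than once. The main summaries are therefore also given over the 399 SST-gated and 19991 other nuclei whose barcode was seen in 1 library.

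The reporter transcripts of intronic GREs were more abundant in SST-gated nuclei than in the rest, and so were those of the other GREs. SST folds were computed as mean UMIs per SST-gated nucleus divided by the mean over the other kept nuclei, after adding 0.01 to both. Over the 84 intronic GREs it had a median of 2.18, quartiles of 1.26 and 2.88 and a range of 0.702 to 8.72. It was above 1 for 80 GREs, above 2 for 45 and above 4 for 7. The 45 became 14 with 0.1 added in place of 0.01, 25 with a gate of 1 Sst UMI, 28 without the 1% of nuclei with most viral UMIs and 28 against PV, VIP and NPY nuclei. Of all GREs of the library, 50.5% had a fold above 2, so the 45 of 84 lay close to the share in the library, and the 203 GREs outside introns had a median of 2.00 with 100 above 2. With the nuclei of shared barcodes left out, the median of the intronic GREs was 2.03 and 43 were above 2. The exact interval of the fold, which covers counting error only, lay above 1 for 59 of the 84 and for 141 of the 203 other GREs.

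The whole pool was raised in these nuclei. SST-gated nuclei carried a mean of 47.2 viral UMIs over all GREs against 14.9 in the other nuclei, a ratio of 3.17. The ratio was 3.00 for the summed intronic GREs (14.2 against 4.74 UMIs per nucleus) and 3.25 for the summed other GREs. It was 3.76 for the 303 viral barcode columns that were paired with no GRE, which had 5791 UMIs in all kept nuclei. The study describes more designed barcodes (1164) than GRE and barcode pairs (861), so these columns do not stand for a vector without a GRE. The origin of their UMIs was not tested. By the fold with 0.01 added, 17 of the 84 intronic GREs exceeded the ratio of the pool (33 of the 203 others), and by the ratio of means with nothing added, 35 did (76 of the others). How far a vector's SST fold reflects its element rather than what these nuclei share over all vectors was not tested.

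Depth limited many members. Total UMIs in kept nuclei ranged from 12 for GRE243 to 14809 for GRE122, with a median of 972.5, and these totals also follow how much of each vector was in the pool, so levels are compared between classes of nuclei and not between GREs. The 57 members with at least 300 UMIs had a median fold of 2.53, with 43 above 2, and the 129 other GREs of that depth a median of 2.55, with 90 above 2. The 27 members under 300 UMIs had a median of 1.24, with 2 above 2, where the added 0.01 draws values towards 1. A barcode column paired with no GRE had a median of 9 UMIs, and 6 members did not exceed the 27 UMIs that 3 such columns would give. At 3 times the 95th percentile of these columns (61.6 UMIs), 23 members did not exceed it. A change in vector uptake and a change in transcripts per nucleus cannot be told apart in these counts.

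UMIs were concentrated in few nuclei. The single SST-gated nucleus with most UMIs of a GRE held a median of 25.0% of that GRE's SST UMIs, and over 50% for 11 members. Without that nucleus, a removal made on the SST side alone, the median fold was 1.56 and 31 members were above 2, against 1.45 and 72 of the 203 others. The pattern also differed between the library sets, which may be different animals. Taken alone, set 1 gave a median fold of 1.64 and set 2 one of 2.29, and 32 of the 84 were above 2 in both. The others had medians of 1.72 and 2.03, with 62 of 203 above 2 in both. All 3 barcodes of a GRE had a fold above 1 for 40 members and for 105 of the others. Within single libraries, which held 46 to 80 SST-gated nuclei, the median ran from 0.922 in library 1-1 to 1.83 in library 2-2.

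GRE22, one of the elements that the study took forward, had the highest SST fold of the intronic GREs and ranked 3rd of all GREs. It was measured with 650 UMIs in SST-gated and 3275 in other nuclei, that is 979 against 103 UMIs per 1000 nuclei, and its fold was 8.72 (95% interval 8.02 to 9.47). The fold was 11.1, 7.57 and 4.18 for its 3 barcodes, 7.71 in set 1 and 10.1 in set 2, and above 1 in 10 of 10 libraries (1.77 to 13.3). Leaving out its top SST-gated nucleus, which held 6.46% of the SST UMIs, gave 8.17. By class, its mean was 328 UMIs per 1000 nuclei in PV-gated, 102 in VIP-gated, 68.2 in NPY-gated and 128 in excitatory-gated nuclei, and 31.5 to 71.7 in the glial and vascular gates. A UMI of GRE22 was seen in 16.4% of SST-gated nuclei (exact binomial interval 13.7 to 19.5%) and in 3.99% of the others (3.78 to 4.21%), against 2.59% in vascular-gated nuclei, a class taken here as the background level. Thinned to 300 non-viral UMIs per nucleus, the shares were 10.2%, 2.01% and 1.395%. The median depth was 854.5 UMIs in SST-gated and 637 in vascular-gated nuclei.

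Of the next 7 members by SST fold, GRE91 and GRE88 were above 3 for each barcode and in both library sets. GRE91, in intron 7 of 10 of Spock1, which encodes a secreted proteoglycan, had 604 against 99.2 UMIs per 1000 nuclei and a fold of 5.62 (5.07 to 6.22). Its fold was 4.09, 6.09 and 3.94 by barcode, 5.72 and 5.49 by library set and above 1 in 10 of 10 libraries. GRE88, in intron 4 of 6 of Prdm1, encoding the repressor BLIMP1, had 630 against 148 UMIs per 1000 nuclei and a fold of 4.06 (3.67 to 4.47), with 3.14, 4.28 and 3.41 by barcode and 4.25 and 3.81 by set. Both were above 1 in 10 of 10 libraries, and PV-gated nuclei were the next highest class for both, at 240 and 450 UMIs per 1000 nuclei. The fold of GRE88 was 2.28 against PV, VIP and NPY nuclei alone and 2.67 with a gate of 1 Sst UMI.

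GRE197, which was annotated to intron 1 of 1 of Cav1, encoding caveolin-1, and also reached an exon of it, had a fold of 4.73 (4.18 to 5.35), with 404 against 77.4 UMIs per 1000 nuclei. It was above 1 in 10 of 10 libraries, but its barcodes gave 6.35, 1.31 and 0.902, and its fold was 2.11 without the 1% of nuclei with most viral UMIs. GRE182, annotated to intron 1 of 16 of Abtb2, had a central window that touched a RefSeq exon. Its fold was 4.12 (3.61 to 4.69), with 2.62, 0.755 and 5.03 by barcode, and was above 1 in 9 of 10 libraries. In both cases 1 of the 3 barcodes of the same element was below 1.

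GRE131, in intron 4 of 4 of Hapln1, had a fold of 4.66 (4.05 to 5.35), with 3.10, 4.75 and 3.44 by barcode, and it was 2.47 in set 1, 8.11 in set 2 and above 1 in 9 of 10 libraries. GRE211, in intron 8 of 8 of Wwox, had 71 UMIs in SST-gated nuclei, a fold of 5.01 (3.99 to 6.24) and a top nucleus with 45.1% of those UMIs, without which the fold was 2.95, and it was above 1 in 6 of 10 libraries. GRE106, in intron 4 of 11 of Cdh8, encoding a cadherin, had 43 UMIs in SST-gated nuclei, of which a single nucleus held 88.4%, and its highest class was the PV gate. Its fold was 3.72 over all nuclei, 0.872 without that nucleus, 0.862 in set 1, 0.932 without library 2-3 and 0.505 over barcodes seen in 1 library, and it was above 1 in 3 of 10 libraries. The intervals take UMIs as independent, which does not hold where 1 nucleus holds most of them.

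At the other end, GRE175, annotated to intron 21 of 40 of Myo5a, which encodes a myosin motor, and also reaching an exon of it, had the lowest fold of the 84, at 0.702 (0.488 to 1.02). The interval included 1, and the fold was 1.89 with nuclei of more than 1 gate kept in the SST class and 1.53 against PV, VIP and NPY nuclei alone. It was measured at 24.1 UMIs per 1000 SST-gated nuclei against 38.6 in the others, its fold was above 1 in 1 of 10 libraries, and its highest class was the excitatory gate, at 47.5. GRE5, in intron 37 of 50 of Lrba, and GRE176, in intron 1 of 6 of Gpm6a, encoding a neuronal membrane glycoprotein, had folds of 1.02 (0.695 to 1.55) and 1.06 (0.724 to 1.62). Their UMIs in SST-gated nuclei were 9 and 8, and a difference in either direction was not detectable at this depth. Both had their highest mean in PV-gated nuclei. GRE5 had 0 UMIs in NPY-gated and in vascular-gated nuclei, and 12 in PV-gated nuclei, 66.7% of them in a single nucleus.

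The 5 members with most UMIs gave the following folds. GRE200, in intron 4 of 15 of Spon1, encoding the secreted protein spondin-1, had 1169 UMIs per 1000 SST-gated nuclei against 360 and a fold of 3.19 (2.96 to 3.43), above 1 in 10 of 10 libraries. GRE286, in Relb and also reaching an exon of it, had a fold of 2.72 (2.48 to 2.98), also above 1 in 10 of 10 libraries. GRE37, in intron 14 of 15 of Rngtt, encoding the mRNA capping enzyme, had a fold of 2.46 (2.20 to 2.74), and GRE122, in intron 5 of 5 of Bnc2, one of 2.24 (2.07 to 2.41), above 1 in 8 and 9 libraries. GRE51, for whose host no expression was analysed here, had a fold of 1.81 (1.60 to 2.04), above 1 in 9 libraries. Of these 5, GRE200 alone exceeded the ratio of 3.17 of the summed pool.

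SST-gated nuclei had the highest mean for 43 of the 84 intronic GREs (110 of the 203 others) and PV-gated nuclei for 29 (59 of the others). The 43 stayed 43 over barcodes seen in 1 library. It became 26 with a gate of 1 Sst UMI, 52 with a gate of 5 and 31 without the 1% of nuclei with most viral UMIs. The intronic share of viral UMIs was 28.0% to 34.4% across the 10 gates. The median fold of a class over all other nuclei was 1.70 for PV, 1.15 for excitatory, 0.908 for NPY and 0.873 for VIP, and 0.472 to 0.596 for the glial and vascular gates. Over 2-fold higher in PV-gated nuclei were 33 members (64 of the 203 other GREs), 24 of which were also above 2 in SST-gated nuclei, while 21 were above 2 in SST-gated but not PV-gated nuclei and 9 in PV-gated but not SST-gated nuclei. The same counts over the 203 other GREs were 52, 48 and 12. The SST mean was above the PV mean for 51 of 84 members, with a median ratio of 1.15, and for 131 of the others. Above 2 were 2 members in VIP-gated nuclei (10 of the others), 4 in NPY-gated nuclei (17 of the others) and 0 in excitatory-gated nuclei (0 of the others). PV-gated nuclei were the deepest class, with a median of 1337 UMIs. With viral UMIs scaled per 10000 non-viral UMIs of each class, SST-gated nuclei had the highest mean for 45 intronic GREs. The number highest in PV-gated nuclei was not computed at that scale, so the part of depth in their viral counts was not tested.

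Several of the members with the highest fold in a remaining class were read from few UMIs of that class. These rankings are among members with at least 300 UMIs in all kept nuclei. GRE220, in intron 8 of 11 of Zcchc4, had the highest PV fold, 7.26, from 36 UMIs (133 per 1000 PV-gated nuclei, against 22.6 in SST-gated nuclei), 50.0% of them in 1 nucleus. Its SST fold was 1.59 (1.10 to 2.32) and fell to 0.858 without 1 SST-gated nucleus and to 0.854 without library 1-5. GRE276, in intron 12 of 22 of Cntn6, encoding a contactin, was highest in NPY-gated nuclei with 199 UMIs per 1000 nuclei and in SST-gated nuclei with 181, folds of 3.51 and 3.27. GRE171, in Insyn2b, had the highest excitatory fold at 1.59 and an SST fold of 3.56, with 41.5 and 119 UMIs per 1000 nuclei. GRE246, in Thsd7a, had the highest VIP fold at 2.19, with 80.0% of its 20 VIP UMIs in 1 nucleus.

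In the glial and vascular gates the highest folds were 2.85 for GRE161 in vascular-gated nuclei, where 1 nucleus held 94.4% of 18 UMIs, and 2.74 for GRE269 in OPC-gated nuclei, where 1 nucleus held 87.1% of 62. GRE181, in Mgmt, reached 1.29 in microglia-gated nuclei with all 8 UMIs in 1 nucleus. Among members with at least 300 UMIs, GRE2, in Diaph3, had the highest fold in astrocyte-gated nuclei at 0.974 and GRE178, in Syt16, in oligodendrocyte-gated nuclei at 0.946. No other intronic GRE was above 2 in a glial or vascular gate, while 4 of the 203 others were above 2 in OPC-gated and 1 in vascular-gated nuclei.

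Members that share a host gene can be set side by side. GRE26 and GRE35, in introns 11 and 10 of Ebf1, had SST folds of 2.56 (2.17 to 3.00) and 2.48 (2.19 to 2.80), and GRE29 and GRE47, both in intron 1 of the noncoding gene 2810404M03Rik, had 3.06 (2.70 to 3.44) and 2.65 (2.14 to 3.26). The intervals overlapped within each pair. GRE50 and GRE243 of Ptprd, GRE212 and GRE280 of Opcml, GRE207 and GRE277 of Macrod2, and GRE246 and GRE195 of Thsd7a each paired a GRE of 627 to 3386 UMIs with one of 12 to 49 UMIs, and no comparison could be made within them. GRE51, GRE265 and GRE269 also shared a host gene. By library their SST folds ran from 0.940 to 4.13, from 0.667 to 2.40 and from 0.7705 to 11.2.

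Most host genes were not higher in SST-gated nuclei, while most of the GREs had an SST fold above 1. The 2 measures are unlike, since the GRE fold is per nucleus and includes the rise of the whole viral pool. By the ratio of means with nothing added, 35 of the 84 GREs exceeded the ratio of that pool. Host levels are UMIs per 10000 non-viral UMIs, and the ratio of SST-gated to all other nuclei was computed for the 55 host genes with at least 100 UMIs and at least 1 in each group. The median ratio was 0.762, against 0.925 over the 12578 genes of that depth. Above 2 were 6 of the 55 (also 6 over barcodes seen in 1 library), beside 4.67% of all genes, and below 0.5 were 16, beside 15.8% of all genes. The 6 became 3 of 56 tested with a gate of 1 Sst UMI and 2 of 21 tested against PV, VIP and NPY nuclei. Across 59 GRE and host pairs (55 genes) the Spearman correlation of the 2 folds was 0.0598, or 0.207 over barcodes seen in 1 library, and 0.194 over the 41 pairs with at least 300 viral UMIs, both from the same nuclei and given as a description. Both exceeded 2 in 4 pairs, the GRE alone in 30, the host alone in 2 and neither in 23. A GRE above 2 lay in a host below 1 in 22 pairs, while 41 of all 59 pairs had a host at or below 1. The highest class was shared with the host gene for 11 of the 59 GREs. Numbers expected without any relation were not computed, so nothing is read from these counts.

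The 4 pairs in which both exceeded 2 were GRE88 with Prdm1, GRE182 with Abtb2, GRE200 with Spon1 and GRE22 with Cers6. Prdm1 had 44 UMIs in SST-gated and 77 in other nuclei, 0.685 against 0.0277 per 10000, a ratio of 24.7 (16.7 to 36.3) that was 26.1 and 22.8 in the library sets, and it was at 0 in PV-gated nuclei. GRE88, in its intron, was at 450 UMIs per 1000 PV-gated nuclei. Spon1 was at 2.74 against 0.546 per 10000, a ratio of 5.01 (4.26 to 5.86). It was higher still in OPC-gated nuclei, at 5.96, where GRE200 was at 150.5 UMIs per 1000 nuclei. The whole viral pool also differed by class, with means of 47.2 UMIs per nucleus in SST-gated, 36.0 in PV-gated and 6.55 in OPC-gated nuclei. The levels of GRE88 and GRE200 are not scaled to this, so they do not set element and host apart by class. Abtb2 had a ratio of 5.64 (3.56 to 8.58), with 2.21 and 9.24 by set, and at 0.389 per 10000 in SST-gated nuclei it was below the OPC (1.02), astrocyte (0.476) and oligodendrocyte (0.469) gates. Cers6 had one of 2.32 (1.88 to 2.84), with 1.59 per 10000 in SST-gated, 0.961 in PV-gated and 0.722 in excitatory-gated nuclei, and 2.54 and 2.12 by set. The other host genes above 2 were Nrxn3, encoding a presynaptic neurexin, at 2.25 (2.06 to 2.46) and the noncoding Mir100hg at 2.22 (1.73 to 2.81). Their elements GRE230 and GRE120 had SST folds of 1.24 (0.926 to 1.95) and 1.94 (1.34 to 2.79), from 58 and 257 UMIs. GRE120 had 16 UMIs in SST-gated nuclei, 62.5% of them in 1 nucleus, without which its fold was 1.08, and it was above 1 in 2 of 10 libraries.

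GRE91, GRE131 and GRE197 lay in genes that were lower in SST-gated nuclei. Spock1, host of GRE91, had a ratio of 0.602 (0.356 to 0.955), and Hapln1, encoding a link protein of the perineuronal matrix and host of GRE131, one of 0.321 (0.104 to 0.753), being highest in NPY-gated nuclei at 4.94 per 10000. Cav1, host of GRE197, had a ratio of 0.273 (0.0742 to 0.703) and was highest in vascular-gated nuclei at 4.55 per 10000. GRE197 was at 16.2 UMIs per 1000 nuclei there against 404 in SST-gated nuclei. Over all vectors the mean was 5.28 viral UMIs per vascular-gated and 47.2 per SST-gated nucleus, and the levels of single GREs are not scaled to this. Ebf1 was also highest in the vascular gate, at 2.24 per 10000 in the vascular and 0.0467 in the SST gate, while GRE35 reached 149 UMIs per 1000 vascular-gated nuclei, 41.3% of them in 1 nucleus, and GRE26 48.5, 80.0% of them in 1 nucleus. The ratio of Wwox was 1.47 (0.876 to 2.31) and that of Cdh8 0.739 (0.513 to 1.03).

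By role, 15 of 17 listed host genes of adhesion, guidance and extracellular matrix had enough UMIs, with a median ratio of 0.616, 2 above 2 (Spon1 and Nrxn3) and 6 below 0.5, beside 4.67% and 15.8% of all genes. The lowest ratios of the 55 host genes tested were in this list, at 0.0260 for Col3a1, a fibrillar collagen with 1 UMI in SST-gated nuclei, 0.139 for Gpc5, a glypican, and 0.184 (0.105 to 0.300) for Ptprk, a receptor phosphatase. Prkg1, host of GRE121, had 0 of its 128 UMIs in SST-gated nuclei and was not among the 55, since a UMI in each group was required. The 22 GREs in these genes had a median SST fold of 2.03, with 11 above 2, beside 50.5% of the library. Of 11 listed transcription and RNA regulators 10 were measured, with a median ratio of 0.704, Prdm1 above 2 and 3 below 0.5, while their 12 GREs had a median of 2.26, with 8 above 2. Of 4 ion channel and receptor genes 3 were measured, with a median of 0.587, 0 above 2 and 1 below 0.5 (Kcnh7, a potassium channel, at 0.241), while the 4 GREs had a median of 2.74 and all 4 were above 2. By library, GRE132 of Kcnh7 ran from 0.446 to 12.0, below 1 in most libraries, and GRE129 of Glra2 from 0.4515 to 19.0. GRE138 of Gabrb1 ran from 0.671 to 6.76 and GRE143 of Kcnt2 from 0.6975 to 6.67. Of the interneuron regulators shown for comparison, Satb1 was at 7.59 per 10000 in SST-gated and 5.13 in PV-gated nuclei against 0.725 in VIP-gated nuclei, and Lhx6 at 0.762 and 0.587 against 0. Sox6 (0.311, 0.347 and 0.0764) was also lowest in VIP-gated nuclei, while Maf (5.38, 3.90 and 4.39), Dlx1 (0.669, 0.187 and 1.15), Dlx5 (0.265, 0.267 and 0.305) and Dlx6 (0.373, 0.187 and 0.229) were not.

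Accessibility of the members was the basis of the library, so its values are a description. The ATAC libraries held 1801883 to 2256073 reads in regions. An intronic GRE had 3 to 89 reads over the 6 libraries together, with a median of 8. Depth-scaled mean SST reads were above those of the PV and VIP samples together for 84 of 84, and for 203 of the 203 others. Both SST replicates were above every PV and VIP replicate for 60 of the 84 and 140 of the 203 others. A peak was marked in at least 1 SST replicate for 40 GREs and in both for 11, in PV for 2 and in VIP for 4. Of the 203 other GREs the numbers were 118, 23, 4 and 10. GRE22 had 1 and 10 reads in the SST replicates and 0 in each PV and VIP replicate. GRE91 had 15 and 15 in SST, 3 and 0 in PV and 0 in both VIP replicates, and GRE199, in Plcb2 and also reaching an exon of it, had 11 and 39 in SST, 1 and 2 in PV and 4 and 1 in VIP. The reads of GRE5 were 0 and 17 in SST and 0 elsewhere, that is all in 1 SST replicate. This also held for other members, among them GRE51 (0 and 8) and GRE106 (0 and 6).

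Over the 84 members the Spearman correlation of SST ATAC reads and SST fold was 0.0599, and -0.0185 over the 57 with at least 300 UMIs, both descriptions over elements. The SST fold and the total UMIs of a member had a Spearman correlation of 0.602 over the 84, a description over values that share the same UMIs. GRE161, GRE199 and GRE265, the members with most SST reads, had SST folds of 2.53 (1.86 to 3.40), 1.20 (1.02 to 1.42) and 1.26 (0.942 to 1.98). In set 2 alone GRE161 was at 0.745 and GRE199 at 0.898, and GRE199 was at 0.943 against excitatory-gated nuclei. The filter on low counts for the edgeR test was passed by 7 of the 84 and by 14 of the 203 others, through their SST reads. The library was chosen on this contrast, so nothing is read from their calls.

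The host genes held further accessible regions that no GRE was made from, and the rule for the members did not use these. Each host gene was included through a GRE chosen on SST accessibility in the same ATAC libraries. Its other regions are therefore not independent of that choice, and their counts are a description. A called region of Cped1, chr6:22098576-22099233, lay close to GRE68, which ended at chr6:22098067. With edgeR's quasi-likelihood test, comparing SST with PV and VIP averaged, 8.15% of 40338 tested regions were called higher and 5.41% lower in SST (Benjamini-Hochberg adjusted p under 0.05, 2 replicates per group). Of the 304 tested regions inside host genes, 40 were higher and 24 lower. Because PV and VIP were averaged, SST values overlapped those of PV or VIP in some of the regions called higher. The most lower calls within 1 gene, 7 of 22 tested regions with 1 higher, were in the shared host of GRE51, GRE265 and GRE269. DESeq2 on the same regions called 10 and 6, with 864 and 589 over all regions.

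In Cers6, 3 of 9 tested regions were higher in SST and 0 lower. The one with the largest log2 fold change, 4.20 (edgeR adjusted p = 0.00271), at chr2:68988913-68989636, had 10 and 12 reads in the SST replicates, 4 and 1 in PV and 0 and 0 in VIP. The others, at chr2:69038552-69039170 and chr2:68884402-68885125, had log2 fold changes of 2.33 (edgeR adjusted p = 0.0288) and 2.15 (0.00943). The first of these had 7 and 14 reads in SST, 10 and 3 in PV and 0 and 1 in VIP, so that SST and PV overlapped, and the second had 12 and 13 in SST, 4 and 3 in PV and 1 and 3 in VIP. In Spock1, 4 of 8 regions were higher and 1 lower, and SST and PV depth-scaled values overlapped in 2 of the 4. The lower one, at chr13:57488777-57489503, had 74 and 85 reads in VIP against 4 and 1 in SST and 6 and 0 in PV, a log2 fold change of -2.62 (edgeR adjusted p = 0.0296). In Gpc6, 4 of 19 were higher and 2 lower, in Auts2 3 of 16 and 1, in Esrrg 3 of 21 and 1, and in Cped1 2 of 3 and 0. SST overlapped VIP in 1 of the higher regions of Gpc6 and PV in 1 of those of Esrrg.

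In Abtb2 2 of 8 regions were higher and 1 lower, and in the higher ones SST overlapped PV in one and VIP in the other. In Wwox 2 of 15 were lower and 0 higher, 1 of them at chr8:114773352-114774032, close to GRE211, with 17 and 20 reads in VIP, 3 and 2 in PV and 0 and 2 in SST (log2 fold change -2.68, edgeR adjusted p = 0.0467). Prdm1, the host gene with the highest SST ratio in expression, had 2 tested regions and 0 called. In Spon1 1 of 3 regions was higher and 1 lower, and in the higher one SST and PV depth-scaled values overlapped. Host genes with regions called in both directions included Spock1, Abtb2 and Spon1.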

How the data were processed

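Per the labels and the study's methods, the authors assigned reads to nuclei with the inDrops pipeline against GRCm38 with a contig for each viral barcode. They deposited counts of UMIs per gene and viral barcode in each nucleus, from viral transcripts enriched by PCR. For ATAC-seq they deposited read counts per reference region, a table marking in which samples a region held a peak, and a phyloP conservation score per region, in mm10 (GRCm38). The processing notes name Trimmomatic 0.33 and Subread 1.4.6-p3 among the tools. The authors' own fold ratios for the GREs and their separate peak lists were deposited and not used.

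The 3 barcodes of a GRE were summed, nuclei were kept above a minimum of 200 non-viral UMIs, and fold values used 0.01 as pseudocount. Intervals are exact Poisson, conditional binomial or Clopper-Pearson at 95% and cover counting error only. Host genes came from the transcript named in the annotation, placed by RefSeq (GRCm38.p6) and GENCODE. Doublets were not called, and nuclei that met more than 1 gate stayed in the comparison. ATAC counts were tested with edgeR 4.0.16 (TMM, filterByExpr, quasi-likelihood), with DESeq2 1.42.0 as an alternative, and checked on simulated counts. 2 ATAC replicates per group limit those p-values to the spread between these samples.

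The intronic GREs, marker and gene lists and tests were chosen with earlier results of these data known. Elements named were the study's hit, the 8 highest and 3 lowest SST folds and the highest fold per class (at least 300 UMIs), the 5 with most UMIs, the 3 with most SST ATAC reads and those sharing a host gene. Host genes were theirs plus the 5 highest and 3 lowest SST ratios. Sequence windows touching an exon were not printed. Alternatives to the gate, the depth minimum, the pseudocount and the libraries are given in the closing section. A listed interneuron regulator is not reported here.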

Additional observations from a re-analysis of the deposited data

Results flagged for a closer look

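Viral columns paired with no GRE held 5791 UMIs in kept nuclei, 1.14% of all viral UMIs. Of these 303 columns, 297 had a UMI, with a median of 9 and a highest of 550. The report uses them only as a level to set the members beside, and they do not stand for a vector without a GRE. Their mean was 0.637 UMIs per SST-gated nucleus and 0.170 in the others, a ratio of 3.76.

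For the SST folds of the 38 named GREs, the median fold of the 84 intronic GREs and the mean viral UMIs per nucleus, 80 groups of 5 libraries were checked for 1 library far from the others of its set, and 14 groups, over 12 GREs, had one. For normally distributed values chance gives about 1 in 20. Folds from few UMIs with a pseudocount need not be normal, so the 14 cannot be set against that rate. In set 1 the SST fold stood apart for GRE131 in library 1-3 (7.30), GRE220 in 1-5 (5.50), GRE269 in 1-3 (4.22), GRE265 in 1-4 (2.10), GRE199 in 1-4 (2.05) and GRE277 in 1-2 (2.54). In set 2 it did so for GRE106 in library 2-3 (22.4), GRE47 in 2-3 (6.94), GRE220 in 2-2 (3.05), GRE280 in 2-2 (2.86), GRE277 in 2-5 (2.72), GRE243 in 2-4 (2.52), GRE22 in 2-5 (1.77) and GRE176 in 2-1 (1.25). The value of GRE22 was the lowest of its set. GRE243, GRE265, GRE277 and GRE280 had 12 to 52 UMIs in all.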

How the results depend on the processing

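The median SST fold of the intronic GREs (2.18) was 2.55 with a pseudocount of 0.001 and 1.44 with 0.1, 1.64 with a gate of 1 Sst UMI, 1.62 without the 1% of nuclei with most viral UMIs, 1.73 against excitatory-gated nuclei, 1.61 against PV, VIP and NPY nuclei, 1.64 in set 1 and 1.56 without each GRE's top SST nucleus. The last, and the use of barcodes seen in 1 library, were chosen after seeing the data. The count above 2 was 45, with 145 in the whole library, whose counts follow in brackets. It was 62 (196) with a pseudocount of 0.001 and 14 (49) with a pseudocount of 0.1. It was 25 (82) with 1 Sst UMI, 28 (91) without the top 1% and 28 (91) against PV, VIP and NPY nuclei. With viral UMIs scaled per 10000 non-viral UMIs of the class, the count was 42 (134) and the median fold 1.99. GREs highest in SST (43) were 26 with 1 Sst UMI and 75 when set beside excitatory nuclei alone, and host genes above 2 (6) were 3 of 56 tested with 1 Sst UMI and 2 of 21 tested against PV, VIP and NPY nuclei, beside 6 of 55. The cause of these shifts was not tested, except that fewer classes compared leave fewer that can be highest.

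Folds fell below 1 for GRE106 (0.9995 without the top 1%, 0.862 in set 1, 0.505 over barcodes seen in 1 library, 0.932 without library 2-3, and up to 4.17 without library 1-5), for GRE220 (0.692 without the top 1%, 0.642 against PV, VIP and NPY nuclei, 0.830 over barcodes seen in 1 library, 0.854 without library 1-5, and up to 1.75 without library 2-3), for GRE199 (0.943 against excitatory nuclei, 0.898 in set 2) and for GRE161 (0.745 in set 2). These 11 values are those whose fold had an interval excluding 1 over all nuclei. Of all 912 values of named folds under the alternatives, 39 lay on the other side of 1, among them 1.89 and 1.53 for GRE175.

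Regions called higher and lower by ATAC (3288 and 2182) were 864 and 589 by DESeq2, 411 and 157 without a filter, and 2865 to 4958 and 1544 to 2507 with 1 replicate left out, the 4958 without SST replicate 1. A lone sample was then assumed to vary like the other groups. Intronic GREs called higher (7 of 7 tested) were 3 of 84 without a filter and 5 to 14 with a replicate left out, of 8 to 14 tested, which says nothing about stability because the library was chosen on this contrast. Host gene regions higher and lower (40 and 24) were 10 and 6 by DESeq2, 3 and 2 without a filter, and 32 to 50 and 11 to 27 with a replicate left out, the 11 without PV replicate 1. Without a filter 310120 regions were tested.

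With the replicate block, 2994 regions were higher, 1935 lower, 7 intronic GREs higher, and 36 and 20 host gene regions higher and lower. Same-numbered samples shared only a number (correlations of their deviations -0.0366 to 0.0297).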
